A study of Homo sapiens with 34 samples.

Results

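The genes described here encode the subunits of integrins and laminins, 34 of the 20255 genes in the deposited table. They were taken by gene symbol, as rows named as an integrin alpha or beta subunit or as a laminin alpha, beta or gamma chain, without ITGB3 and ITGA2B. The 34 genes are 16 integrin alpha subunits, 7 integrin beta subunits and 11 laminin chains. The rule uses no measured value, and all 34 passed the filter on low values.

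Samples for RNA-seq came from the H1 line of human embryonic stem cells during a differentiation to blood cells to which no haematopoietic cytokine was added. There were 12 populations: undifferentiated H1 cells without treatment (1 sample), embryoid bodies (EBs, cell aggregates) at day 0 labelled as given BMP4 and hVEGF, unsorted cells labelled hVEGF at days 2 and 4, and hVEGF-treated cells sorted by the blood cell glycoprotein CD43 at days 6, 9, 12 and 16. Per the study's methods, the EBs attached to collagen IV between day 0 and day 2 with BMP4, hVEGF and the compound Thiazovivin. From day 2 the medium held hVEGF without BMP4. On day 16 the sort also used CD45, so that the day 16 CD43- cells are CD43-CD45- and the day 16 CD43+ cells are CD43+/CD45+. Comparisons of day 16 with earlier days therefore also compare different sorts. Those of day 6 with day 4 set sorted cells against unsorted ones, so a change with the day and the effect of the sort cannot be told apart. Each population except the undifferentiated cells had 3 replicates, all from 1 cell line, which the study's methods describe as independent biological replicates. Values are the authors' GC-normalized tag counts, here called values. Because every sample holds the same set of numbers, a value mostly reflects where a gene ranks within its sample, the depth of each sample is unknown, and differences at the top of the scale are compressed. Differences were tested as log2(value + 1) with limma over 19788 genes, and a gene was called when its Benjamini-Hochberg adjusted p was below 0.05 and its fold change above 4 (a log2 fold change beyond 2 in either direction). On this scale the fold change of a gene with low values comes out too small.

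SPN, the gene of CD43, was between 5979 and 8780 in day 6 CD43+ samples and between 19 and 49 in day 6 CD43- samples, and it was called higher in CD43+ cells on all 4 days. PTPRC, the gene of CD45, was at 0 to 8 in the day 6 CD43+ samples and was called higher in CD43+ cells from day 9. Several libraries stood apart in genes of other cell types. In day 12 CD43- replicates 2 and 3, the summed values of 5 monocyte and macrophage markers (CD14, CD163, C1QA, CSF1R and MARCO) were 2974 and 3991, against 128 in replicate 1. The same sum was 53620 in day 12 CD43+ replicate 1, against 18210 and 14868 in replicates 2 and 3. The summed neutrophil precursor markers MPO, ELANE, AZU1 and PRTN3 were 48 to 86 in the day 9 CD43- samples, 80, 464 and 6286 in day 12 CD43- replicates 1, 2 and 3, and 6093, 19907 and 12246 in those of day 16. The sum of 4 megakaryocyte markers (PF4, PPBP, GP9 and ITGA2B) was 3870, 11735 and 5925 in the day 16 CD43- samples, against 103 to 167 on day 9. In the day 6 CD43- samples, the sum of 5 endothelial markers (CDH5, PECAM1, KDR, TEK and EMCN) was 91098, 71914 and 30263, replicate 3 being lowest. Mesenchymal markers were not absent from CD43+ cells. Their sum (PDGFRB, COL1A1, COL3A1 and LUM) was 21466 to 64134 on day 6 and 5235 to 12224 on day 16, against 135814 to 168662 and 207198 to 208356 in CD43- cells. In such bulk samples, fewer cells of a type and less RNA per cell cannot be told apart.

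Integrins are receptors of 1 alpha and 1 beta subunit that span the cell membrane and tie the cell to the extracellular matrix or to other cells. ITGB1 pairs with most of the alpha subunits, ITGB2 with the alpha subunits of leukocytes, and ITGB4 with ITGA6 alone. Laminins are the cross-shaped trimers of basement membranes, built of 1 alpha, 1 beta and 1 gamma chain, and are bound by integrins through ITGA3, ITGA6 or ITGA7. In blood formation, integrins with ITGA4 and with ITGB2 are known for homing to tissue and for the adhesion of circulating leukocytes to vessel walls.

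Over the 4 sorted days, no member was called in both directions. In total, 7 genes were called higher in CD43+ cells on at least 1 day and never lower (ITGA4, ITGA7, ITGAL, ITGAM, ITGAX, ITGB2 and ITGB7), and 24 were called lower on at least 1 day and never higher. ITGA9, ITGAE and LAMB4 were called on no day. Thus 31 of 34 members were called on at least 1 day, against 37.5% of all genes tested. The 11 laminin chains, except LAMB4, were among the 24 lower genes, and none was called higher. ITGA4 and ITGAL were higher on all 4 days, as were 2.09% of all genes. ITGA1, ITGA8, ITGA11, ITGB6, LAMA1 and LAMA4 were lower on all 4 days, as were 4.62% of all genes.

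**Figure D1:**
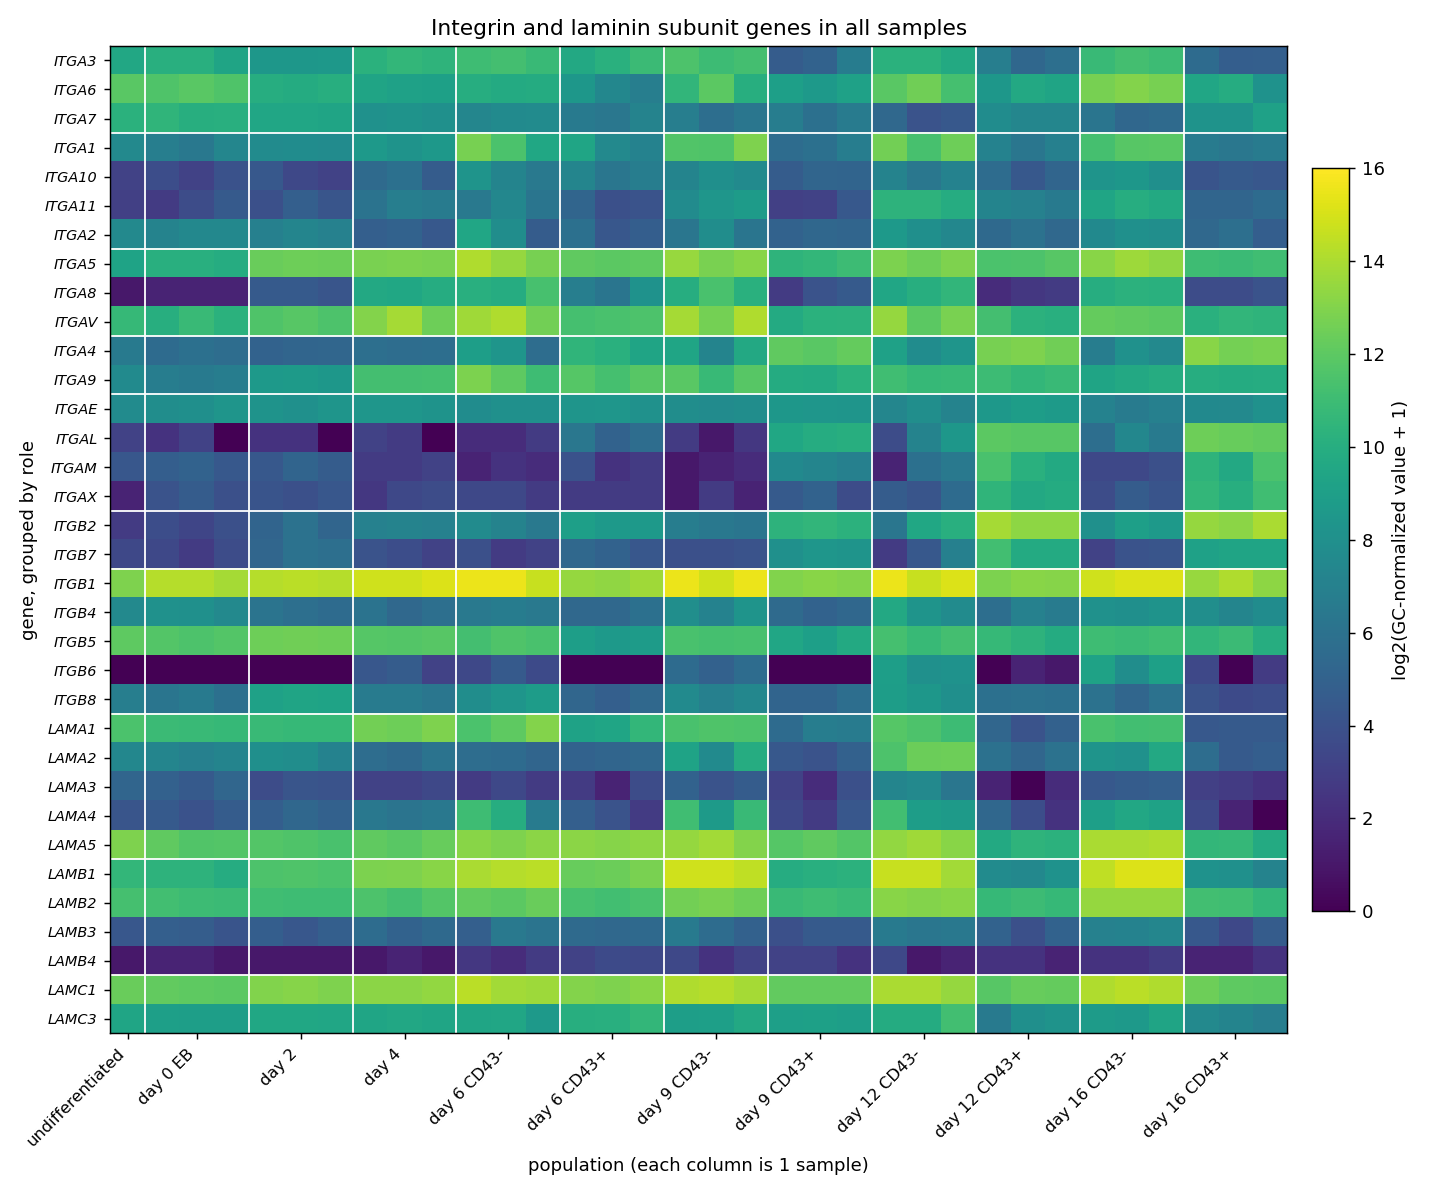
Level of the 34 genes (rows, grouped by role) in all 34 samples (columns, grouped by population), as log2(GC-normalized value + 1) on a colour scale from 0 to 16. The leukocyte genes ITGAL, ITGAM, ITGAX, ITGB2 and ITGB7 are brightest in the day 12 and day 16 CD43+ columns, while LAMB1 and LAMA5 are bright in the CD43- columns and darker in the CD43+ columns after day 6.

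On day 6, 13 members were called, which is 38.2% of them, against 12.5% of all genes tested. Of these, 2 were higher in CD43+ cells (against 4.68% of all genes) and 11 lower (against 7.85%). On day 9 there were 21, or 61.8%, against 21.5% of all genes, with 6 higher (against 8.65%) and 15 lower (against 12.8%). Day 12 gave 26, or 76.5%, against 26.2%, with 7 higher (against 11.8%) and 19 lower (against 14.4%). Day 16 gave 24, or 70.6%, against 25.8%, with 7 higher (against 12.2%) and 17 lower (against 13.6%). The median log2 fold change of the members, CD43+ minus CD43-, was -0.87, -1.90, -2.17 and -1.98 on the 4 days in turn, where that of all genes was 0.14, 0.24, 0.22 and 0.14. The samples of the 2 gates were free of overlap for 24, 31, 32 and 31 members on days 6, 9, 12 and 16. Among all genes the same held for 56.8%, 70.9%, 61.6% and 73%, so that non-overlap by itself was common. Taking only the laminin chains, 2 of 11 were called lower on day 6, 4 on day 9, and 8 on both day 12 and day 16.

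**Figure D2:**
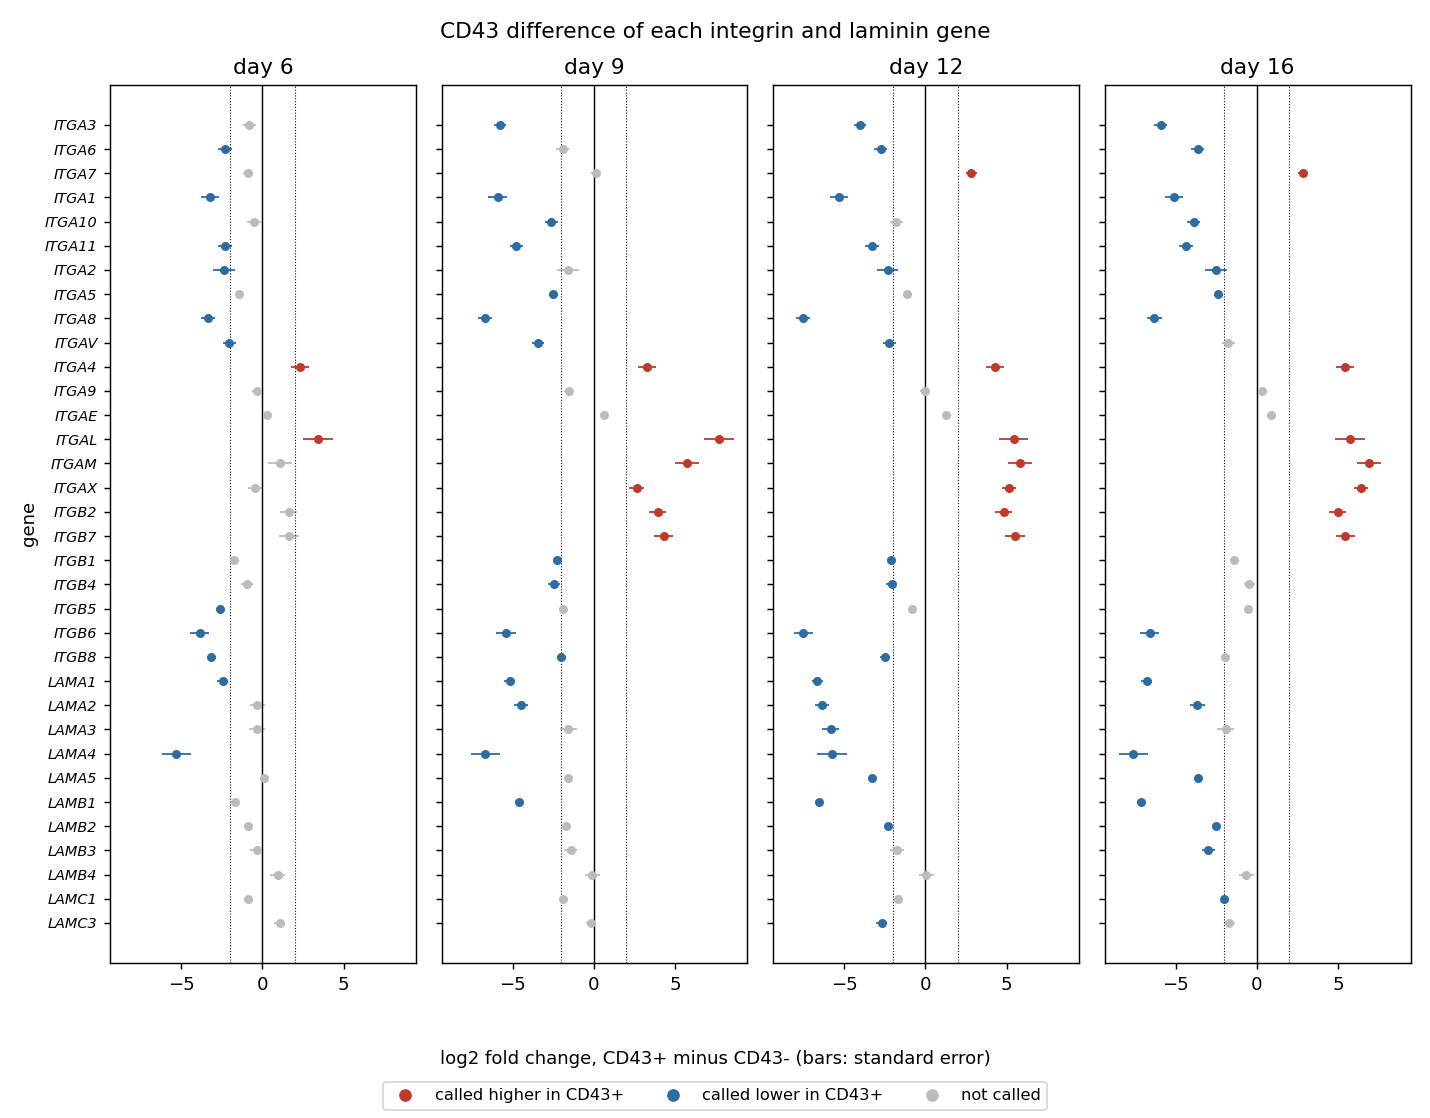
Log2 fold change of each gene (rows), CD43+ minus CD43- cells, on days 6, 9, 12 and 16 (panels), with its standard error as a bar and dotted lines at the 4-fold limits. The ITGB6 points of days 6 and 9 are no fold, since all CD43+ samples are listed at 0. Red points were called higher, blue points lower and grey points not called. The red genes are the leukocyte subunits, ITGA4 and, from day 12, ITGA7, and the laminin rows shift left after day 6, LAMB1 from -1.66 on day 6 to -7.16 on day 16.

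The leukocyte integrins rose in steps in CD43+ cells, ITGAL first. ITGAL encodes the alpha subunit of LFA-1, which with ITGB2 binds the ICAM proteins. Its values in CD43- cells were 3, 3 and 6 on day 6, 6, 1 and 5 on day 9, 12, 144 and 350 on day 12, and 54, 167 and 96 on day 16. In CD43+ cells they were 80, 32 and 52 on day 6, 736, 946 and 1064 on day 9, 3945, 3615 and 3726 on day 12, and 5562, 5045 and 4662 on day 16. The CD43+ samples were above the CD43- samples on every day, with log2 fold changes of 3.43, 7.69, 5.43 and 5.72 on days 6, 9, 12 and 16 (standard error 0.91, highest adjusted p = 0.00255). Within CD43+ cells ITGAL rose from day 6 to day 9 by 4.12 (log2, standard error 0.91, adjusted p = 0.000917). The day 12 values were again above those of day 9 without overlap, but that step did not reach an adjusted p below 0.05.

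ITGAM, which pairs with ITGB2 to form the complement receptor Mac-1 of monocytes and neutrophils, followed on day 9. ITGAM stood in CD43- cells at 2, 4 and 3 on day 6, 1, 2 and 3 on day 9, 2, 58 and 86 on day 12, and 10, 10 and 14 on day 16. Its CD43+ values were 15, 4 and 6 on day 6, 196, 154 and 124 on day 9, 2675, 1158 and 858 on day 12, and 1332, 808 and 2894 on day 16. The day 6 samples of the 2 gates overlapped and the gene was not called then (1.07, adjusted p = 0.236). From day 9 the log2 fold changes were 5.76, 5.80 and 6.90 on days 9, 12 and 16 (standard error 0.74, highest adjusted p = 1.52e-07), with no overlap. Within CD43+ cells it rose by 4.24 between days 6 and 9 and by a further 3.15 to day 12 (standard error 0.74, highest adjusted p = 0.000735).

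ITGAX, the alpha subunit known as CD11c of monocytes, macrophages and dendritic cells, was last. CD43- samples had ITGAX values of 10, 10 and 6 on day 6, 1, 6 and 2 on day 9, 24, 18 and 48 on day 12, and 12, 24 and 17 on day 16. CD43+ samples had 6, 6 and 6 on day 6, 22, 32 and 12 on day 9, 1404, 800 and 900 on day 12, and 1525, 1063 and 2146 on day 16. On day 9 it was already called higher in CD43+ cells (2.63, adjusted p = 8.71e-06), though with values of 12 to 32, and with a pseudocount of 10 the difference was 1.27 and not called. It grew to 5.14 on day 12 and 6.39 on day 16 (standard error 0.44, highest adjusted p = 6.57e-11). From day 9 to day 12 it rose in CD43+ cells by 5.55 (standard error 0.44, adjusted p = 6.65e-11), the largest change of any member between successive days of CD43+ cells.

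ITGB2, the beta subunit that all of these alpha subunits share, already had values above 100 on day 4. Its unsorted values were 6 in the undifferentiated sample, 13, 9 and 14 on day 0, 34, 64 and 36 on day 2, and 128, 141 and 132 on day 4. In CD43- cells ITGB2 was 208, 140 and 88 on day 6, 108, 85 and 72 on day 9, 78, 751 and 1097 on day 12, and 264, 532 and 405 on day 16. In CD43+ cells ITGB2 was 512, 392 and 381 on day 6, 1278, 1466 and 1253 on day 9, 14678, 10080 and 10080 on day 12, and 11504, 9722 and 15858 on day 16. The gates did not overlap on any day. The day 6 difference of 1.63 (adjusted p = 0.0129) stayed under the 4-fold limit, and the later ones were 3.92, 4.83 and 4.97 on days 9, 12 and 16 (standard error 0.53, highest adjusted p = 3.97e-07). The step called in CD43+ cells was the rise between day 9 and day 12 (3.10, adjusted p = 1.96e-05). The ITGB2 locus overlaps ITGB2-AS1 on the other strand, and whether reads were counted by strand is not stated.

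ITGB7, which pairs with ITGA4 or ITGAE in lymphocytes and other leukocytes, showed a small early peak and then a rise in CD43+ cells. Before sorting, ITGB7 was 10 in the undifferentiated sample, 10, 6 and 12 on day 0, 38, 64 and 56 on day 2, and 16, 13 and 8 on day 4. It was called higher on day 2 than on day 0 (2.39, adjusted p = 0.00253) and lower on day 4 than on day 2 (-2.03, adjusted p = 0.00924), the second being under 4-fold without day 2 replicate 2 (-1.87), day 2 replicate 3 (-1.97) or day 4 replicate 3 (-1.77). Its CD43- values were 14, 6 and 8 on day 6, 14, 14 and 16 on day 9, 6, 20 and 125 on day 12, and 8, 16 and 18 on day 16. Its CD43+ values were 42, 32 and 19 on day 6, 264, 345 and 310 on day 9, 2330, 890 and 884 on day 12, and 580, 636 and 651 on day 16. On day 6 the samples did not overlap, but the difference of 1.64 was under 4-fold. It was 4.29, 5.53 and 5.45 on days 9, 12 and 16 thereafter (standard error 0.60, highest adjusted p = 6.21e-07). The rise in CD43+ cells from day 9 to day 12 lay just above 4-fold (adjusted p = 0.00612). It was 1.54 (adjusted p = 0.0537) without day 12 replicate 1, 1.90 without day 9 replicate 1 and 1.97 with a pseudocount of 10, and not called in any of these. Both early changes were also under 4-fold with a pseudocount of 10 (1.69 and -1.48). The ITGB7 locus overlaps ZNF740 on the other strand.

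Markers of blood lineages moved in CD43+ cells over the same days. The monocyte and macrophage sum of the CD43+ samples was 304 to 700 on day 6, 2516 to 2927 on day 9, 14868 to 53620 on day 12 and 45924 to 50426 on day 16, with C1QA and MARCO at 0 in every day 6 CD43+ sample. Their neutrophil precursor sum was 90 to 113, 21823 to 30104, 137413 to 154295 and 131748 to 163793 on the 4 days in turn. Day 12 CD43+ replicate 1, the sample with the highest monocyte sum of its group, was also the highest of the 3 for ITGAL, ITGAM, ITGAX, ITGB2 and ITGB7. Without it the rise from day 9 to day 12 was 2.67 for ITGAM, 5.31 for ITGAX and 2.92 for ITGB2 (highest adjusted p = 0.00844), all still called. The part of these lineages in the integrin values was not tested.

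**Figure D3:**
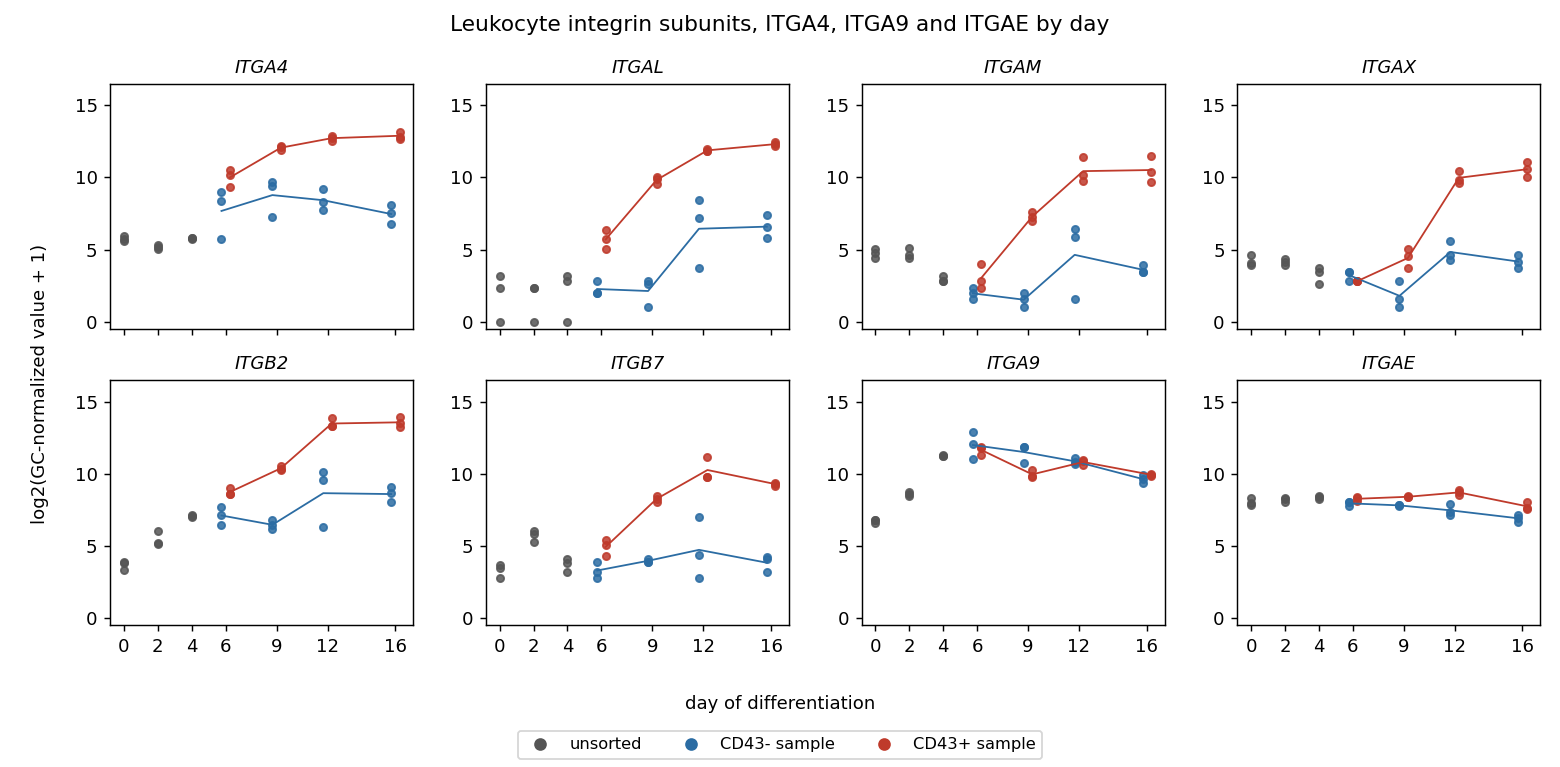
Each point is 1 sample, plotted by day of differentiation (x axis) and log2(GC-normalized value + 1) (y axis), for 8 integrin genes. Lines join the means of CD43- (blue) and CD43+ (red) samples. ITGA4 and ITGAL were called on day 6, ITGAM, ITGB2 and ITGB7 are far apart by day 9, ITGAX climbs between days 9 and 12, and ITGA9 and ITGAE were called on no day.

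Promoters are shown for 1 gene that rose in CD43+ cells (ITGAM) and for a pair of laminin genes that were lower there (LAMA2 and LAMC1). For each, the whole 250 bases before the RefSeq start also lie before the start in the deposited table. Other members, such as ITGA11, LAMA5 and LAMB4, meet this rule too and are not shown, so the genes printed are examples. Capitals mark the letters GAGGAA or their reverse complement TTCCTC, the core to which the myeloid factor PU.1 can bind. The sequences are from RefSeq (GRCh38.p14), all on the plus strand, at chr16:31259725-31259974 for ITGAM, chr6:128882888-128883137 for LAMA2 and chr1:183023170-183023419 for LAMC1.
ITGAM: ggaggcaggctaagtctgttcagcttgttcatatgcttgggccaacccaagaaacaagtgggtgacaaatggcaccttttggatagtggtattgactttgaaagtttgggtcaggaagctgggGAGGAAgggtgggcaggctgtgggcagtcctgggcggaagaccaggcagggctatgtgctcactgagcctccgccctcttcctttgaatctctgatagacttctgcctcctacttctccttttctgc
LAMA2: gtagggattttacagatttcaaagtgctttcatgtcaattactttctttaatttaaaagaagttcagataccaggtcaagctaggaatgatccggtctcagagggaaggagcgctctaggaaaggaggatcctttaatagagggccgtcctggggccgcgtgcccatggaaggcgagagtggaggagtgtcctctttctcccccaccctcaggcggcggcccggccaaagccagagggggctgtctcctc
LAMC1: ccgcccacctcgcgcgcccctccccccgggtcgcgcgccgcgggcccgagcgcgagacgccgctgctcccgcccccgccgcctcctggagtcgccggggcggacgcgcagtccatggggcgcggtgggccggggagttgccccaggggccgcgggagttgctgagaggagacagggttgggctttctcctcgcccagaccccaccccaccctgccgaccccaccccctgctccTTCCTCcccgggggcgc
In the ITGAM promoter GAGGAA began 127 bases before the start, LAMC1 held TTCCTC and LAMA2 held neither. The RefSeq table held a promoter for 25 of the 34 members. Of these, 2 of the 3 called higher in CD43+ cells (ITGAM and ITGB7, not ITGA4), 8 of the 20 called lower and 1 of the 2 called on no day held GAGGAA on either strand within 250 bases before a start. Counted by promoter, since a gene can have several, the letters stood in 34.4% of the 32 promoters of members and in 23.6% of all 35116 promoters of the table. GATAA, part of the motif of GATA factors, or its complement TTATC, stood in promoters of 3 members, or 9.38% of the 32, and in 20.4% of all promoters, and its matches cannot overlap those of GAGGAA. A match of letters is only a description of the window.

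ITGA4 was the member that stood furthest above the unsorted day 4 cells in day 6 CD43+ cells. It encodes the alpha4 subunit, which with ITGB1 forms VLA-4, a receptor for VCAM1 and fibronectin on haematopoietic progenitors. The unsorted samples had ITGA4 values of 92 in the undifferentiated sample, 48, 60 and 52 on day 0, 32, 36 and 38 on day 2, and 56, 52 and 54 on day 4. In CD43- cells the values were 497, 325 and 52 on day 6, 679, 150 and 821 on day 9, 580, 217 and 317 on day 12, and 108, 270 and 186 on day 16. CD43+ cells gave 1443, 1138 and 654 on day 6, 4330, 3822 and 4720 on day 9, 6823, 7635 and 5912 on day 12, and 9246, 6589 and 7163 on day 16. The gates did not overlap, and the log2 fold changes were 2.32, 3.29, 4.30 and 5.42 on days 6, 9, 12 and 16 (standard error 0.56, highest adjusted p = 0.00114). Compared with day 4, day 6 CD43+ cells were higher by 4.22 (adjusted p = 6.02e-07). The day 6 call rested on the lowest CD43- sample, replicate 3 at 52. Without it the difference was 1.35 (adjusted p = 0.0206) and under 4-fold. ITGA4 also rose in CD43+ cells from day 6 to day 9 (2.06, adjusted p = 0.00596), a rise that was under 4-fold without day 6 replicate 3 (1.74) or day 9 replicate 3 (1.99).

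ITGA9, a close relative of ITGA4 that pairs with ITGB1 and binds tenascin and osteopontin, did not follow it. Its values were 197 in the undifferentiated sample, 110, 94 and 108 on day 0, 390, 428 and 356 on day 2, and 2378, 2347 and 2461 on day 4. It was called higher on day 4 than on day 2 (2.61, standard error 0.29, adjusted p = 4.28e-08). On day 6 ITGA9 ranged from 2115 to 7481 in CD43- and from 2540 to 3682 in CD43+ samples, and on day 16 from 660 to 962 and from 935 to 1015. Its log2 fold changes between the gates were -0.34, -1.55, -0.05 and 0.29 on days 6, 9, 12 and 16 (standard error 0.29), of which the day 9 value passed the adjusted p but not the fold limit (adjusted p = 3.44e-05). ITGAE, the alphaE subunit of lymphocytes in epithelia, ranged from 101 to 470 over all 34 samples. It was higher in CD43+ cells on days 9, 12 and 16 by 0.60, 1.24 and 0.84 (highest adjusted p = 0.00382), all under 4-fold. Their loci overlap ITGA9-AS1 and GSG2 on the other strand.

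Some leukocyte subunits were also called in CD43- cells, from day 9 to day 12, beside the monocyte markers of 2 libraries. In CD43- cells 7 members were called higher on day 12 than on day 9 and none lower (20.6%, against 7.32% of all genes). Of these, ITGAL rose by 4.31, ITGAM by 3.11, ITGAX by 3.04 and ITGB2 by 2.19 (adjusted p = 0.000558, 0.00177, 7.79e-06 and 0.00215). In day 12 CD43- replicates 1, 2 and 3, ITGB2 was 78, 751 and 1097, ITGAL 12, 144 and 350 and ITGAM 2, 58 and 86. PTPRC was 4, 197 and 371 in the same samples and the macrophage scavenger receptor CD163 32, 936 and 838. With replicate 1 as the only day 12 CD43- sample, the log2 fold change from day 9 was -0.16 for ITGB2, 0.06 for ITGAM and 1.57 for ITGAL. This choice was made after the monocyte markers of replicates 2 and 3 had been seen, and it leaves 1 sample, so it is no independent test. ITGAX was 24, 18 and 48 in the 3 day 12 CD43- samples, and its log2 fold change with replicate 1 alone was 2.85. In a fit of only the 2 populations, ITGAL and ITGB2 were not called (adjusted p = 0.0601 and 0.152). ITGB2 was also under 4-fold without replicate 2 (1.74) or replicate 3 (1.47). CD43+ against CD43- cells on day 12 gave 27 called members with replicate 1 alone, against 26. On day 16 MPO was 4657, 12840 and 8970 in the CD43- samples, where ITGB2 was 264, 532 and 405 and ITGAL 54, 167 and 96. Replicate 2 was highest and replicate 1 lowest for all 3 genes, and the part of blood cells in these integrin values was not tested.

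**Figure D4:**
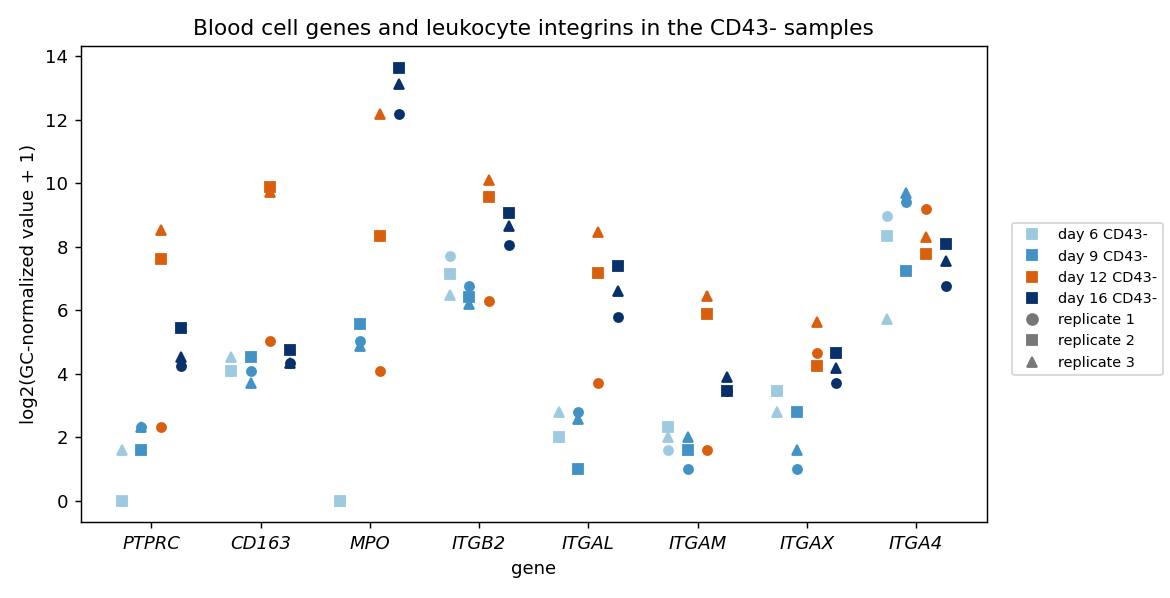
Level of 3 blood cell genes (PTPRC, CD163, MPO) and 5 integrin genes in the 12 CD43- samples, as log2(GC-normalized value + 1) on the y axis, with colour for the day and symbol for the replicate. In the day 12 samples (orange), replicates 2 and 3 lie above replicate 1 for PTPRC, CD163, MPO, ITGB2, ITGAL and ITGAM but not for ITGA4, and MPO is highest in the day 16 samples (4657 to 12840).

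Of the laminin-binding alpha subunits, ITGA3 and ITGA6 were lower in CD43+ cells and ITGA7 was higher there late. ITGA3, a receptor for laminins with the alpha5 chain, was 2056, 2399 and 1870 on day 6, 2984, 2040 and 2348 on day 9, 1167, 1208 and 851 on day 12, and 1828, 2399 and 1992 on day 16 in CD43- samples. The CD43+ samples gave 796, 1135 and 1888 on day 6, 24, 32 and 106 on day 9, 116, 40 and 56 on day 12, and 48, 26 and 28 on day 16. The gates overlapped on day 6 (-0.81, adjusted p = 0.0835) and were apart afterwards, with log2 fold changes of -5.77, -4.03 and -5.93 on days 9, 12 and 16 (standard error 0.39, highest adjusted p = 5.98e-10). Within CD43+ cells ITGA3 fell from day 6 to day 9 (log2 fold change -4.75, adjusted p = 5.47e-10), the largest fall of a member between successive days in these cells. The day 6 CD43+ sample with the highest ITGA3, replicate 3 at 1888, also had the highest mesenchymal marker sum of that group (64134), and the part of those cells in its value was not tested.

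ITGA6, which pairs with ITGB1 or ITGB4 and is abundant on pluripotent cells, was high at the start, lower on day 4 and high again in the late CD43- cells. Early samples held 3851 in the undifferentiated sample, 3132, 3851 and 3156 on day 0, 1009, 903 and 1060 on day 2, and 649, 577 and 534 on day 4. CD43- samples then held 1005, 878 and 910 on day 6, 1448, 3978 and 1044 on day 9, 3814, 5894 and 2518 on day 12, and 6688, 8262 and 6810 on day 16, and the day 16 samples were all above the undifferentiated one. In CD43+ samples ITGA6 was 350, 167 and 115 on day 6, 512, 380 and 568 on day 9, 354, 794 and 648 on day 12, and 699, 940 and 288 on day 16. Every day was free of overlap, and the log2 fold changes were -2.29, -1.92, -2.76 and -3.65 on days 6, 9, 12 and 16 (standard error 0.42, highest adjusted p = 0.000224). That of day 9 was under the 4-fold limit, as was that of day 6 without CD43+ replicate 3 (-1.94). The ITGA6 locus overlaps AC093818.1 on the other strand.

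ITGA7, the laminin receptor best known from muscle, was lower in the late CD43- samples than in any sample before sorting. Its values were 1204 in the undifferentiated sample, 1404, 1040 and 1096 on day 0, 701, 718 and 644 on day 2, and 274, 302 and 266 on day 4. CD43- cells had 159, 204 and 207 on day 6, 114, 54 and 76 on day 9, 42, 16 and 20 on day 12, and 72, 40 and 46 on day 16. CD43+ cells had 90, 80 and 140 on day 6, 110, 60 and 98 on day 9, 215, 158 and 160 on day 12, and 300, 294 and 572 on day 16. The difference changed direction, from -0.90 on day 6, under 4-fold, to 2.83 on day 12 and 2.83 on day 16 (standard error 0.32, highest adjusted p = 1.14e-08). The ITGA7 locus overlaps BLOC1S1, METTL7B and RP11-644F5.10 on the other strand.

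All 4 collagen-binding alpha subunits were lower in CD43+ cells on at least 2 days. ITGA1 (alpha1, a receptor for basement membrane collagen IV) was 6702, 2848 and 735 on day 6, 3226, 3138 and 7635 on day 9, 6071, 2554 and 5560 on day 12, and 2441, 3656 and 3788 on day 16 in CD43- cells. In CD43+ cells ITGA1 was 690, 187 and 134 on day 6, 50, 60 and 108 on day 9, 134, 78 and 123 on day 12, and 98, 81 and 101 on day 16. The samples never overlapped, and the log2 fold changes were -3.22, -5.93, -5.33 and -5.11 on days 6, 9, 12 and 16 (standard error 0.56, highest adjusted p = 2.61e-05). ITGA1 was also called higher in day 6 CD43- cells than on day 4 (2.77, adjusted p = 0.000217). It shares its locus with PELO on the same strand, so reads of the 2 genes may be split between them.

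ITGA2 (alpha2, a receptor for fibrillar collagen that platelets also carry) had CD43- values of 723, 226 and 24 on day 6, 78, 228 and 75 on day 9, 382, 250 and 165 on day 12, and 194, 264 and 238 on day 16. Its CD43+ values were 58, 19 and 26 on day 6, 32, 40 and 36 on day 9, 44, 64 and 42 on day 12, and 42, 56 and 26 on day 16. It was called on days 6, 12 and 16, with log2 fold changes of -2.34, -1.59, -2.33 and -2.51 on days 6, 9, 12 and 16 (standard error 0.67, highest adjusted p = 0.0384), although the samples overlapped on day 6. Without day 6 CD43- replicate 1, at 723, the day 6 difference was -1.25 (adjusted p = 0.0873) and no longer called, nor was it in a fit of only the 2 populations (adjusted p = 0.124). ITGA2 fell between day 2 and day 4 (-2.32, adjusted p = 0.00741), from 122, 155 and 130 to 28, 32 and 20.

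ITGA10, a collagen receptor of cartilage, was 304, 151 and 86 on day 6, 146, 246 and 202 on day 9, 144, 80 and 135 on day 12, and 307, 360 and 248 on day 16 in CD43- cells. CD43+ cells held 154, 78 and 108 on day 6, 24, 36 and 34 on day 9, 50, 20 and 36 on day 12, and 17, 22 and 19 on day 16. It overlapped on day 6, was called on days 9 and 16 (-2.61 and -3.90, standard error 0.42, highest adjusted p = 5.10e-06) and fell short of the fold limit on day 12 (-1.78). ITGA11, a receptor for collagen I on fibroblasts, was 6 to 22 on day 0 and 68, 114 and 98 on day 4, a called rise over day 2 (2.19, adjusted p = 0.000159). In CD43- cells ITGA11 was 86, 171 and 74 on day 6, 212, 337 and 430 on day 9, 1324, 1284 and 940 on day 12, and 688, 1000 and 842 on day 16. In CD43+ cells ITGA11 was 36, 14 and 16 on day 6, 7, 8 and 20 on day 9, 146, 132 and 90 on day 12, and 36, 36 and 47 on day 16. There was no overlap, and the log2 fold changes were -2.30, -4.77, -3.27 and -4.37 on days 6, 9, 12 and 16 (standard error 0.42, highest adjusted p = 5.55e-05). The day 4 rise was 1.97 without day 2 replicate 1, and the day 6 difference -1.93 without CD43- replicate 2, both just under 4-fold. From day 9 to day 12 it rose in CD43+ cells by 3.40 (adjusted p = 1.54e-07). The mesenchymal marker sum of those cells was 2662, 4840 and 17674 on day 9 and 17515, 16533 and 36532 on day 12, and its part in the ITGA11 rise was not tested.

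Among the alpha subunits that bind the tripeptide RGD of fibronectin and other ligands, ITGA8 had the largest differences. ITGA8, known from mesenchyme as a receptor for nephronectin, had values of 2 or less at the start. It was 1 in the undifferentiated sample, 2, 2 and 2 on day 0, 22, 22 and 18 on day 2, and 797, 726 and 965 on day 4. The rises to day 2 (2.85) and to day 4 (5.26) were both called (standard error 0.44, highest adjusted p = 9.61e-06). That to day 2 was 1.35 and not called with a pseudocount of 10. CD43- cells kept values of 1110, 950 and 2596 on day 6, 1000, 2700 and 1164 on day 9, 712, 1027 and 1461 on day 12, and 982, 1254 and 1160 on day 16. CD43+ cells held 114, 75 and 288 on day 6, 6, 16 and 22 on day 9, 3, 5 and 6 on day 12, and 12, 12 and 16 on day 16. The log2 fold changes were -3.36, -6.71, -7.53 and -6.31 on days 6, 9, 12 and 16 (standard error 0.44, highest adjusted p = 4.62e-07), without overlap. Replicate 3 was the highest day 6 sample in both gates.

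ITGA5, the alpha subunit of the classical fibronectin receptor, was called higher on day 2 than on day 0 (2.39, standard error 0.22, adjusted p = 1.36e-09), from 1090, 1108 and 940 to 5292, 5760 and 5376. CD43- samples held 17284, 11476 and 6791 on day 6, 11964, 7132 and 8946 on day 9, 7294, 5614 and 7746 on day 12, and 8946, 12784 and 10397 on day 16. CD43+ samples held 4354, 4058 and 4098 on day 6, 1384, 1531 and 2008 on day 9, 2870, 2940 and 3668 on day 12, and 2064, 1896 and 2156 on day 16. Each day was free of overlap, and the log2 fold changes were -1.41, -2.49, -1.12 and -2.38 on days 6, 9, 12 and 16 (standard error 0.22, highest adjusted p = 4.97e-05), beyond 4-fold on days 9 and 16. ITGAV, the partner of several RGD-binding beta subunits, was 13324, 17368 and 6071 on day 6, 14685, 6470 and 17368 on day 9, 11508, 3945 and 7163 on day 12, and 4788, 4432 and 4039 on day 16 in CD43- cells. In CD43+ cells ITGAV was 2500, 2664 and 3016 on day 6, 883, 1193 and 1248 on day 9, 2362, 1248 and 1072 on day 12, and 1118, 1464 and 1332 on day 16. Its log2 fold changes were -2.04, -3.43, -2.23 and -1.76 on days 6, 9, 12 and 16 (standard error 0.39, highest adjusted p = 0.000286), called on days 6, 9 and 12. The day 6 call was lost when CD43- replicate 1 (-1.92), CD43- replicate 2 (-1.73) or CD43+ replicate 1 (-1.98) was left out, and that of day 12 without CD43- replicate 1 (-1.86).

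Each of the remaining beta subunits was called lower in CD43+ cells on at least 1 day and higher on none. ITGB1, the most widely used beta subunit, stayed high in all populations. CD43- samples had ITGB1 values of 48061, 48061 and 25876 on day 6, 48061, 29030 and 48061 on day 9, 48061, 25876 and 37190 on day 12, and 29030, 37190 and 37190 on day 16. CD43+ samples had 11204, 10446 and 13327 on day 6, 8088, 8977 and 8281 on day 9, 7338, 8977 and 8684 on day 12, and 12018, 17373 and 9902 on day 16. ITGB1 was lower in CD43+ cells without overlap on all days, with log2 fold changes of -1.75, -2.27, -2.11 and -1.43 on days 6, 9, 12 and 16 (standard error 0.23, highest adjusted p = 5.92e-06), past 4-fold on days 9 and 12. Without day 12 CD43- replicate 1 the day 12 difference was -1.90. Values at this height are coarse, since the only value above 48061 is the maximum of 90700, and these fold changes may be understated.

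ITGB4, the beta subunit of hemidesmosomes in epithelia, fell from day 0 to day 2 (-2.03, adjusted p = 6.57e-05), from 274, 256 and 188 to 69, 56 and 48, which was under 4-fold without day 0 replicate 1 (-1.92), day 0 replicate 2 (-1.97) or day 2 replicate 3 (-1.91). Later ITGB4 was 88, 104 and 86 on day 6, 244, 137 and 314 on day 9, 821, 314 and 212 on day 12, and 272, 247 and 303 on day 16 in CD43- cells. In CD43+ cells ITGB4 was 42, 42 and 60 on day 6, 46, 32 and 40 on day 9, 54, 132 and 99 on day 12, and 234, 156 and 215 on day 16. It was called lower on days 9 and 12 (-2.46 and -2.08, standard error 0.36, highest adjusted p = 1.29e-05), although the day 12 difference was -1.52 without CD43- replicate 1 and -1.72 without CD43+ replicate 1. On day 16 the difference was -0.46 (adjusted p = 0.27), where the CD43+ values were 156 to 234. The ITGB4 locus overlaps GALK1 on the other strand. ITGB5, a partner of ITGAV for vitronectin, was called on day 6 alone (-2.63, adjusted p = 2.42e-11), with 2399, 3084 and 2745 in CD43- and 492, 394 and 436 in CD43+ samples. By day 16 its difference was -0.54 and the samples overlapped. Against day 4, at 3542, 3348 and 3722, it was lower in day 6 CD43+ cells (-3.01, adjusted p = 2.91e-12).

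ITGB6, an epithelial beta subunit that with ITGAV can activate latent TGF-beta, was listed at 0 in the undifferentiated sample and in every day 0 and day 2 sample. It was 19, 24 and 8 on day 4. In CD43- cells ITGB6 was 10, 22 and 11 on day 6, 48, 30 and 50 on day 9, 506, 256 and 281 on day 12, and 584, 225 and 534 on day 16. In CD43+ cells ITGB6 was 0, 0 and 0 on day 6, 0, 0 and 0 on day 9, 0, 2 and 1 on day 12, and 10, 0 and 6 on day 16. It was called lower in CD43+ cells on all 4 days (highest adjusted p = 5.14e-06), and no fold is given for days 6 and 9, where all 3 CD43+ samples are listed at 0. The day 12 and day 16 differences were -7.52 and -6.60 (standard error 0.59). In CD43- cells it rose between day 9 and day 12 by 2.96 (adjusted p = 0.000333). The sum of 4 epithelial markers (EPCAM, CDH1, KRT8 and KRT18) in CD43- cells was 60517 to 65490 on day 9 and 36486 to 51700 on day 12. Most of it is KRT8, which was 48061 in all 3 day 9 samples and 25876 to 37190 on day 12. EPCAM was 284 to 590 and 424 to 1114 on these days, and CDH1 1866 to 5641 and 1488 to 4846. The part of epithelial cells in the ITGB6 rise was not tested.

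ITGB8, which with ITGAV also activates TGF-beta, went up and down before sorting. Early values were 116 in the undifferentiated sample, 73, 97 and 58 on day 0, 572, 645 and 618 on day 2, and 102, 102 and 77 on day 4. The rise to day 2 was 3.02 and the fall to day 4 -2.70 (standard error 0.28, highest adjusted p = 1.43e-08). CD43- cells had 230, 322 and 456 on day 6, 202, 122 and 172 on day 9, 472, 357 and 252 on day 12, and 64, 38 and 64 on day 16, and CD43+ cells had 38, 28 and 42 on day 6, 34, 34 and 54 on day 9, 60, 64 and 58 on day 12, and 16, 11 and 13 on day 16. The gates did not overlap, and the differences were -3.15, -2.00, -2.51 and -1.95 on days 6, 9, 12 and 16 (standard error 0.28, highest adjusted p = 7.42e-07). From day 12 to day 16 it fell in CD43- cells (-2.67) and in CD43+ cells (-2.12, highest adjusted p = 1.14e-06). The day 16 difference was under 4-fold. The day 9 difference lay at the limit, and it was -1.84 without CD43- replicate 1, -1.96 without CD43- replicate 3, and -1.89 without CD43+ replicate 1 or replicate 2. The fall in CD43+ cells was -2.00 and not called without day 16 replicate 2.

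The laminin alpha chains define the laminin types, and each had its own course. LAMA1, the alpha chain of the early embryonic basement membrane, was 2787 in the undifferentiated sample, 1908, 1876 and 1690 on day 0, 1835, 1665 and 1690 on day 2, and 6063, 5630 and 7622 on day 4. CD43- cells kept LAMA1 at 2860, 4147 and 8262 on day 6, 2700, 3078 and 2992 on day 9, 3510, 2992 and 1983 on day 12, and 2673, 2234 and 2408 on day 16. In CD43+ cells LAMA1 was 584, 680 and 1544 on day 6, 48, 108 and 99 on day 9, 38, 16 and 30 on day 12, and 20, 22 and 22 on day 16. The log2 fold changes were -2.44, -5.17, -6.65 and -6.77 on days 6, 9, 12 and 16 (standard error 0.34, highest adjusted p = 1.24e-06), without overlap on any day. It was lower in day 6 CD43+ cells than in unsorted day 4 cells (-2.91), and fell within CD43+ cells by day 9 (-3.39, highest adjusted p = 7.56e-08). The endothelial marker sum of CD43+ cells was 27924 to 37605 on day 6, 7661 to 10571 on day 9 and 4074 to 5264 on day 12. Their mesenchymal sum was 21466 to 64134, 2662 to 17674 and 16533 to 36532 on the same days. The part of such cells in the falls of LAMA1, LAMB1, ITGA3 and ITGA8 in CD43+ cells was not tested.

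LAMA2, the alpha chain of muscle and mesenchymal laminin, was transient in CD43- cells. CD43- samples had LAMA2 values of 52, 48 and 37 on day 6, 613, 202 and 976 on day 9, 2981, 5316 and 5706 on day 12, and 304, 277 and 808 on day 16. CD43+ samples had 32, 36 and 42 on day 6, 20, 16 and 30 on day 9, 62, 38 and 64 on day 12, and 52, 22 and 27 on day 16. The CD43- values rose by 3.42 to day 9 and by 3.18 to day 12, and fell by day 16 (-3.46), all called (standard error 0.44, highest adjusted p = 1.30e-05). LAMA2 was the only member called in CD43- cells between day 6 and day 9 (2.94% of members, against 1.75% of all genes), and that rise was not called in a fit of only the 2 populations (adjusted p = 0.0676). The samples of the 2 gates overlapped on day 6 and differed later, with log2 fold changes of -4.48, -6.37 and -3.66 on days 9, 12 and 16 (highest adjusted p = 3.49e-08). LAMA3, the alpha chain of epithelial laminin-332, was low but moved alike in CD43- cells. It was 6, 10 and 6 on day 6, 32, 16 and 24 on day 9, 153, 182 and 78 on day 12, and 20, 24 and 28 on day 16. Its CD43+ values were between 0 and 14. The rise to day 12 was 2.44 and the fall to day 16 -2.40 (standard error 0.52, highest adjusted p = 0.000597), and the gates differed past 4-fold on day 12 only (-5.83, adjusted p = 1.26e-10). In CD43- cells 3 members fell from day 12 to day 16, LAMA2, LAMA3 and ITGB8, and none rose (8.82%, against 10.4% of all genes).

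LAMA4, the alpha chain of endothelial laminin-411, had CD43- values of 2110, 989 and 98 on day 6, 2150, 426 and 1819 on day 9, 2236, 470 and 420 on day 12, and 512, 781 and 604 on day 16. Its CD43+ values were 28, 16 and 6 on day 6, 10, 6 and 19 on day 9, 40, 13 and 4 on day 12, and 10, 2 and 0 on day 16. Without any overlap, the log2 fold changes were -5.29, -6.68, -5.75 and -7.60 on days 6, 9, 12 and 16 (standard error 0.91, highest adjusted p = 2.37e-05). Day 6 CD43- cells were also above day 4, at 82, 69 and 84, by 2.90 (adjusted p = 0.0107). The 3 day 6 CD43- samples differed over a wide range, and LAMA4 was lowest in replicate 3, which also had the lowest endothelial marker sum (30263) and the lowest ITGA1 (735), ITGA2 (24) and ITGA4 (52). The part of endothelial cells in these values was not tested. Without replicate 1 the rise of LAMA4 over day 4 was 1.99 (adjusted p = 0.103) and that of ITGA2 1.47 (adjusted p = 0.0515), neither of them called, so 2 of the 3 members called between day 4 and day 6 CD43- cells (8.82%, against 7.71% of all genes) rested on 1 sample.

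LAMA5, the alpha chain of laminin-511, which supports pluripotent cells and vessels, did not differ detectably on day 6 and did so afterwards. CD43- cells had 8964, 7766 and 9485 on day 6, 11498, 13998 and 8494 on day 9, 10820, 13311 and 9230 on day 12, and 15842, 15842 and 17338 on day 16. CD43+ cells had 9714, 8673 and 10075 on day 6, 3482, 4285 and 3371 on day 9, 835, 1374 and 1236 on day 12, and 1566, 1626 and 898 on day 16. On day 6 the samples overlapped (0.12, standard error 0.20, adjusted p = 0.65). The log2 fold change was -1.59 on day 9, under 4-fold, and -3.29 and -3.63 on days 12 and 16 (highest adjusted p = 1.29e-07). The LAMA5 locus overlaps ADRM1 on the other strand.

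**Figure D5:**
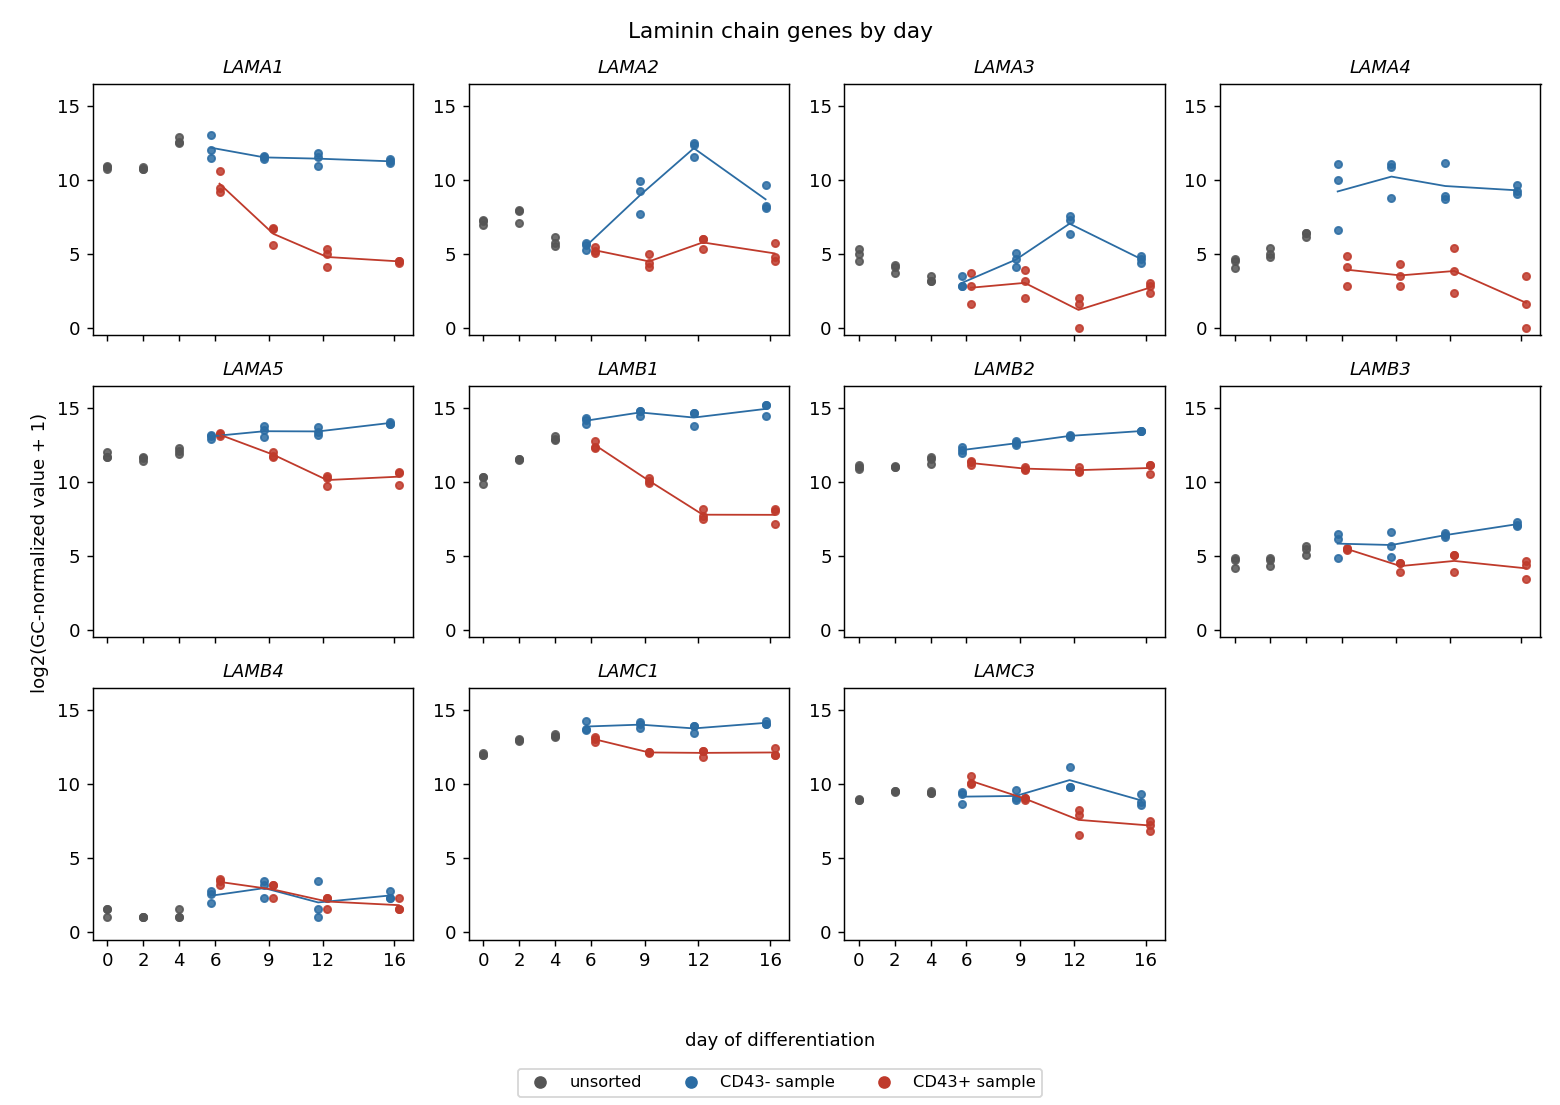
Each point is 1 sample, plotted by day of differentiation (x axis) and log2(GC-normalized value + 1) (y axis), for 11 laminin chain genes. Lines join the means of CD43- (blue) and CD43+ (red) samples. LAMB1, LAMA1 and LAMA5 are lower in CD43+ cells after day 6 than on it, LAMA2 and LAMA3 peak on day 12 in CD43- cells, LAMB2 and LAMC1 part less, and LAMB4 stays between 1 and 11.

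LAMB1, the common beta chain of embryonic and mesenchymal laminins, gave the largest CD43 difference of the beta and gamma chains. Early values were 1516 in the undifferentiated sample, 1296, 1287 and 940 on day 0, 2973, 3044 and 2820 on day 2, and 7476, 7764 and 8962 on day 4. The CD43- samples stood at 15836, 18748 and 20387 on day 6, 28994, 28994 and 22806 on day 9, 25830, 25830 and 13994 on day 12, and 22806, 37162 and 37162 on day 16. The CD43+ samples stood at 5029, 5396 and 7024 on day 6, 964, 1075 and 1236 on day 9, 212, 176 and 288 on day 12, and 287, 258 and 142 on day 16. The differences were -1.66, -4.62, -6.57 and -7.16 on days 6, 9, 12 and 16 (standard error 0.24, highest adjusted p = 2.33e-06), with no overlap and beyond 4-fold from day 9. In CD43+ cells LAMB1 fell between days 6 and 9 (-2.40) and again to day 12 (-2.29, highest adjusted p = 1.76e-08). Its locus overlaps DLD and CTB-13F3.1 on the other strand.

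LAMB2, the beta chain of vascular and synaptic laminins, differed by less. CD43- samples had LAMB2 values of 4608, 3984 and 5250 on day 6, 6248, 6916 and 5783 on day 9, 8970, 8504 and 9240 on day 12, and 11194, 11194 and 11194 on day 16. In CD43+ samples LAMB2 was 2564, 2246 and 2703 on day 6, 1810, 2096 and 1872 on day 9, 1706, 2034 and 1650 on day 12, and 2300, 2228 and 1513 on day 16. The log2 fold changes of LAMB2 were -0.88, -1.71, -2.31 and -2.50 on days 6, 9, 12 and 16 (standard error 0.13, highest adjusted p = 4.48e-06), beyond 4-fold on days 12 and 16. LAMB3, the beta chain of laminin-332, was called on day 16 alone (-2.99, adjusted p = 3.40e-07), at 131, 134 and 160 in CD43- and 20, 10 and 24 in CD43+ samples. LAMB4 ranged from 1 to 11 over all samples. Its only call was for day 6 CD43+ cells, at 8, 11 and 10, above unsorted day 4 cells, at 1, 2 and 1 (2.21, adjusted p = 0.000215). With a pseudocount of 10 this difference was 0.79 and not called.

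LAMC1, the gamma chain of most laminins, was lower in CD43+ cells on all days, with log2 fold changes of -0.87, -1.88, -1.66 and -2.00 on days 6, 9, 12 and 16 (standard error 0.16), passing the 4-fold limit on day 16 only (adjusted p = 1.26e-11), where CD43- samples were 17338, 20394 and 17338 and CD43+ samples 5698, 4110 and 4072. LAMC3, a gamma chain of nervous and vascular tissue, was higher in CD43+ than in CD43- cells on day 6 (1.07, under 4-fold) and called lower on day 12 (-2.69, adjusted p = 5.18e-08), at 920, 916 and 2314 in CD43- and 96, 246 and 303 in CD43+ samples. Without day 16 CD43- replicate 2, or without CD43+ replicate 2 or 3, the LAMC1 difference was under 4-fold (-1.92, -1.93 and -1.92).

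Between unsorted days, 5 members were called from day 0 to day 2, 14.7% of members against 7.88% of all genes. ITGA5, ITGA8, ITGB7 and ITGB8 were higher (against 4.4% of all genes) and ITGB4 was lower (against 3.48%). From day 2 to day 4, 7 were called, 20.6% against 9.5%, of which ITGA8, ITGA9, ITGA11 and ITGB6 were higher (against 4.97%) and ITGA2, ITGB7 and ITGB8 lower (against 4.53%). No laminin chain was called in either step, which for 11 chains is close to these shares of all genes. Under 4-fold but at an adjusted p below 0.05, 2 of the 11 were higher from day 0 to day 2. From day 2 to day 4, 4 were higher and 1 lower in this way. The 3 members called between day 4 and day 6 CD43- cells, ITGA1, ITGA2 and LAMA4, were all higher (against 4.94%, with 2.77% of all genes lower). Day 6 CD43+ cells differed from day 4 in 9 members (26.5%, against 14.5%), of which ITGA4, ITGAL and LAMB4 were higher (against 6.8%) and the other 6 lower (against 7.73%). In CD43+ cells, 8 members were called from day 6 to day 9 (23.5%, against 7.53%), with 4 higher (against 3.56%) and 4 lower (against 3.97%). The next step to day 12 had 6 (17.6%, against 15%), with 5 higher (against 8.45%) and 1 lower (against 6.54%). From day 12 to day 16, ITGB8 was the 1 member called in CD43+ cells and it was lower (2.94%, against 9.05%, with 5.26% of all genes lower and 3.79% higher). In CD43- cells the called shares of all genes were 1.1% higher and 0.657% lower for the step to day 9, 4.52% and 2.8% for that to day 12, and 4.46% and 5.97% for that to day 16, where the members gave 1 and 0, 7 and 0, and 0 and 3.

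Whether the CD43 difference itself moved between day 6 and day 16 was tested as an interaction in the same fit, and it did so for 18 members (52.9%, against 19.2% of all genes). As the day 16 sort also used CD45, a change with the day and a change with the sort cannot be told apart. The difference was more positive on day 16 for 7 members (9.5% of all genes) and more negative for 11 (9.69%). It was largest upwards for ITGAX, at 6.83, and downwards for LAMB1, at -5.50. Of the 11 laminin chains, 6 were called, and all 6 changes were negative.

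Genes that work with integrins and laminins were read from the same fit in 3 lists. Over all genes tested, 4.68%, 8.65%, 11.8% and 12.2% were called higher in CD43+ cells and 7.85%, 12.8%, 14.4% and 13.6% lower on days 6, 9, 12 and 16. Of 13 tested basement membrane partners and other laminin receptors, none was called higher, and 3, 9, 10 and 11 were called lower on these days. The largest change was that of COL4A1, a chain of collagen IV, on day 16 (353.0 ± 44.6 in CD43+ and 76479 ± 24632 in CD43- cells, SD, n = 3 each, log2 fold change -7.70, adjusted p = 1.12e-14 with limma). Its CD43- mean lies above 48061, so it includes the maximum of 90700. The SD there reflects coarse steps between top values, and the fold change may be understated. Of 26 integrin activators and adhesion adaptors, 3, 4, 4 and 5 were called higher and 3, 11, 9 and 8 lower on the same days. PARVG, the parvin of blood cells, had the largest difference upwards, on day 12 (3543 ± 117.2 against 119.0 ± 124.7, log2 fold change 5.79, standard error 0.79, adjusted p = 2.95e-07 with limma). FERMT1, the kindlin of epithelia, had the largest downwards, also on day 12 (0.333 ± 0.577 against 182.0 ± 43.7, -7.16, standard error 0.41). FERMT3, the kindlin that activates integrins in blood cells, was chosen after its values were seen. It was called higher in CD43+ cells on all 4 days, by 4.36, 5.72, 4.98 and 3.36 on days 6, 9, 12 and 16 (standard error 0.43).

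Of 21 integrin ligands other than laminins, 1, 2, 3 and 3 were called higher and 11, 10, 13 and 12 lower on days 6, 9, 12 and 16. The higher counts are close to those that the shares of all genes (4.68%, 8.65%, 11.8% and 12.2%) give for 21 genes, and the lower ones are above them (7.85%, 12.8%, 14.4% and 13.6%). SPP1 (osteopontin, a ligand of ITGA4, ITGA9 and ITGAV integrins) had the largest difference upwards, at 28633 ± 7561 in day 16 CD43+ cells against 154.3 ± 22.3 in CD43- cells (log2 fold change 7.50, standard error 0.86, adjusted p = 1.79e-08 with limma). On day 6 it had been lower in CD43+ cells (-4.37). NPNT (nephronectin, the ligand of ITGA8) had the largest downwards, at 102.0 ± 51.7 against 48061 in all 3 day 16 CD43- samples (-9.02, standard error 0.87). NPNT and ITGA8 were thus both called lower in CD43+ cells on all 4 days.

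By position (GRCh38), 3 pairs of members lie within 100 kb of each other, and their levels did not always move together. ITGAM and ITGAX, 22241 bases apart on chromosome 16, were both called higher in CD43+ cells on days 9, 12 and 16, and in CD43+ cells ITGAX rose by 5.55 and ITGAM by 3.15 between days 9 and 12. ITGA1 and ITGA2, 30115 bases apart on chromosome 5, were both called lower on days 6, 12 and 16. LAMB1 and LAMB4, 20292 bases apart on chromosome 7, differed. LAMB1 was called on 3 days and LAMB4 on none.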

How the data were processed

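RNA-seq was carried out by the authors on 34 samples of differentiating H1 cells. Per the study's methods, reads were aligned with Bowtie2, quantified with RSEM against Ensembl gene models and normalized for GC content with EDASeq, and the submitters' processing notes name STAR 2.7 and hg38 as well. The study's methods name 2 sequencing companies without assigning samples to them, so this could not be separated from the groups. The deposited values are these GC-normalized tag counts, treated here as a score, since every sample holds the same set of whole numbers (summing to 17856940) and so no longer carries its depth. No counting interval or floor could be given. Percentages here are shares of genes, computed from the tests on the deposited values. Values at 0 may be failed estimates.

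The 3 steps made here from these scores were a filter (3 or more samples with a value of 10 or higher, leaving 19788 of 20255 genes), log2(value + 1), and 1 limma fit (version 3.58.1 in R 4.3.3, with a trended prior) of 33 samples in 11 populations, with 22 residual degrees of freedom. The undifferentiated cells, with 1 sample, entered no test. Benjamini-Hochberg adjustment ran over all genes tested, the tests were two-sided, and a call needed an adjusted p below 0.05 and a fold change above 4, the limits of the study's own analysis. The CD43 comparisons of different days share no samples, while successive day steps share the population between them. The study's methods used DESeq2, which needs counts and was not run. The fit was tested on simulated data.

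The members, the marker lists and the lists of adaptors, basement membrane partners and ligands were chosen with earlier results of these data known. Per-sample values are given for members called in at least 2 of the CD43 comparisons and for the members of largest called change in each step between days, with ranges or single days for ITGAE, LAMB3, LAMC1 and LAMC3. Other genes are named as the largest called change in each direction of a list. Replicate numbers are shared between groups. On day 6, same-numbered CD43+ and CD43- samples deviated together with a correlation above 0.1 in every pair (0.109 to 0.199). The numbers were therefore taken to pair the samples of that day, though the main fit held no replicate block. In no other comparison was every pair above 0.1. Every pair was still positive in some of them, among them the gates of day 9 (0.0165 to 0.0782) and of day 12 (0.0389 to 0.108). On days 6 and 12 all 3 CD43+ samples correlated best with the CD43- sample of their own number. On days 9 and 16 this held for 2 of them, so pairing may not be confined to day 6. Alternatives were other pseudocounts, no filter or a stricter filter, a fold limit of 2, median-of-ratios scaling, a fit of only the populations compared, the replicate block, and leaving out each sample. Loci were checked against GENCODE v29, and promoters were read from RefSeq. ITGAD was not analysed here, and 1 further gene is not reported here.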

Additional observations from a re-analysis of the deposited data

Results flagged for a closer look

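For 18 members the CD43 difference on day 16 differed from that on day 6 by the interaction test in limma, with an adjusted p below 0.05 and a change beyond 4-fold. The day cannot be told apart from the sort here, which used CD45 as well on day 16 only. The change (day 16 minus day 6, log2) was positive for 7 integrin subunits. It was 6.83 for ITGAX, 5.83 for ITGAM, 3.81 for ITGB7, 3.74 for ITGA7, 3.35 for ITGB2, 3.10 for ITGA4 and 2.09 for ITGB5. ITGB5 stood apart among these, as the sign of its difference was negative on both days and only its size was smaller on day 16. Without day 16 CD43+ replicate 2 its change was 1.88. Among the other integrin subunits the change was -5.12 for ITGA3, -3.37 for ITGA10, -2.95 for ITGA8, -2.75 for ITGB6 and -2.07 for ITGA11. That of ITGB6 was -1.70 without day 16 CD43+ replicate 2, and -0.73 with a pseudocount of 0.1, as its day 6 CD43+ samples are all listed at 0. That of ITGA11 lay at the limit, and it was -1.94 with median-of-ratios scaling, -1.94 without day 6 CD43- replicate 1, -1.84 without day 6 CD43- replicate 3, -1.67 without day 6 CD43+ replicate 1 and -1.94 without day 16 CD43- replicate 2. Among the laminin chains the change was -5.50 for LAMB1, -4.33 for LAMA1, -3.75 for LAMA5, -3.35 for LAMA2, -2.76 for LAMC3 and -2.63 for LAMB3.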

How the results depend on the processing

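The counts of called members in the 4 CD43 comparisons stayed within 1.5 times under every alternative. The counts of the steps between days were small and moved more. The shares of all genes were not computed under the alternatives, so these counts cannot be set against them. With a fold limit of 2 in place of 4, the step counts were 11 from day 0 to day 2, 15 from day 2 to day 4, 8 from day 4 to day 6 CD43- and 17 to day 6 CD43+ cells, 19, 14 and 6 for the 3 successive steps in CD43+ cells, and 5, 13 and 7 for those in CD43- cells. With a pseudocount of 10 they were 2 from day 0 to day 2, 3 from day 2 to day 4, 5 from day 4 to day 6 CD43+ cells and 0 for the last step in CD43+ cells, where a pseudocount of 0.1 gave 3. Median-of-ratios scaling gave 5 from day 4 to day 6 CD43- cells. A fit of only the populations compared gave 1 for that step, and for the first and second steps in CD43- cells 0 and 4. The replicate block left the day 6 count at 13 and took away none of the 152 called values of single members, while the count for the last step in CD43+ cells was 2. With the block in a fit of only the populations compared, it was 2 for that step and 0 for CD43- cells between days 6 and 9. An alternative chosen after seeing the data, with replicate 1 as the only day 12 CD43- sample, assumed to vary like the other groups, gave 6 for the last step in CD43- cells and turned the ITGB2 value for days 9 to 12 to -0.16. The cause of these shifts was not tested. Leaving out 1 sample at a time gave 11 to 13 members on day 6, 20 to 24 on day 9, 23 to 27 on day 12 and 23 to 26 on day 16. It gave 4 to 5 from day 0 to day 2, 6 to 8 from day 2 to day 4, 2 to 5 to day 6 CD43- cells (5 without CD43- replicate 3) and 7 to 10 to day 6 CD43+ cells. In CD43+ cells it gave 8 to 10, 5 to 7 and 1 to 2 for the 3 steps (2 without day 12 replicate 3 or day 16 replicate 1), in CD43- cells 1, 6 to 8 and 3 to 4, and for the change of the CD43 difference 16 to 20. A pseudocount of 10 took 21 of the 152 under the limits. Among them were the CD43 differences of ITGB6 and ITGA11 on day 6 and of ITGAX and ITGB8 on day 9. So were the differences of LAMA4, ITGB6 and ITGA11 between unsorted day 4 and day 6 CD43+ cells. That difference of LAMA4 was also not called with a pseudocount of 0.1. Nor was it called without any 1 of the day 4 samples or day 6 CD43+ replicate 2 or 3. That of ITGA11 was not called without day 4 replicate 2 or CD43+ replicate 2 or 3. Depth is unknown, so what low values such as those of LAMB4 or ITGB6 can show is limited.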

Other observations

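Between day 2 and day 4 no laminin chain was called, which for 11 chains is close to the share of all genes (9.5%). The laminin chains were not flat, since 4 of the 11 were higher and 1 lower at an adjusted p below 0.05. The share of all genes at that limit alone was not computed. Their log2 fold changes ran from -1.88 to 1.88. LAMA1 went from 1835, 1665 and 1690 to 6063, 5630 and 7622, and LAMB1 from 2973, 3044 and 2820 to 7476, 7764 and 8962. Of the 13 basement membrane partners 3 were called higher and none lower (23.1%, against 9.5% of all genes), the collagen IV chains COL4A1 and COL4A2 and the laminin-binding nidogen NID2, named here after their values were seen. NID2 went from 108.0 ± 22.9 to 9203 ± 1816 (SD, n = 3 each), with a log2 fold change of 6.40 (limma, adjusted p = 8.90e-14). COL4A1 went from 2053 ± 135.7 to 13162 ± 1591 (2.67), and the log2 fold change of COL4A2 was 2.45. Of the 21 integrin ligands that are no laminins, 8 were called higher and 1 lower in the same step (42.9%). The sum of 4 mesenchymal markers was 1274 to 1513 on day 2 and 92962 to 151900 on day 4, and its part in these rises was not tested.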
